A study of Mus musculus with 16 samples.

Results

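Replicate 3 of the small RNA fraction consists of 2 RNA bisulfite sequencing libraries of mouse embryonic stem cells, 1 of wild type and 1 of Dnmt2-/- genotype. They were set against replicates 1 and 2 of the same fraction, 4 libraries in all, out of 16 libraries in the series. The 2 libraries were chosen by their tRNA coverage shares and their non-conversion, which had been seen to differ from the other 4, so every difference between replicate 3 and replicates 1 and 2 is a description and was given no test. The one contrast tested was whether the knockout minus wild type difference in the third pair of libraries departed from that in the other pairs. All 6 libraries came from cells of the J1 background, grown on fibroblast feeders in serum medium with LIF, from which the feeders were removed by repeated attachment to dishes. The labels tell replicate 3 from replicates 1 and 2 by number alone; they name no date, run, culture or clone for it. Nothing says that the replicates were separate cultures, so p-values measure the spread between these libraries, which may be technical.

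Transfer RNAs carry amino acids to the ribosome and fold into an acceptor stem, a D arm, an anticodon arm, a variable loop and a T arm. Several enzymes place 5-methylcytosine on them. Dnmt2, whose gene symbol is Trdmt1, methylates position 38 beside the anticodon of tRNA-Asp-GTC, tRNA-Gly-GCC and tRNA-Val-AAC. Nsun2 methylates variable loop cytosines of many tRNAs and the wobble cytosine of tRNA-Leu-CAA, and Nsun6 methylates the acceptor stem of tRNA-Thr and tRNA-Cys. Bisulfite turns unmethylated cytosine into uracil and leaves 5-methylcytosine, so non-conversion is the percentage of reads at a cytosine that still carried cytosine. A strongly folded stem that stays closed during the treatment can also keep its cytosines unconverted.

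The 6 libraries listed 3459 cytosines on 182 tRNA references, which fall into 50 anticodon families, and 3 of the references merge several genes. Summed coverage over cytosines was 25508518, 29784825 and 25431862 in wild type replicates 1, 2 and 3 and 30874772, 26090449 and 55009793 in knockout replicates 1, 2 and 3. Replicate 3 therefore held both the shallowest and the deepest library. Wild type replicate 3 listed the fewest cytosines, 2886 against 3180 to 3298 in the other 5 libraries. In the rRNA-depleted long fraction of the same replicate numbers, cytosines of the Trdmt1 mRNA from position 200 on, a boundary chosen after the values were seen, numbered 95, 127 and 48 in wild type and 0 in each knockout library. There the 9 stem cell markers summed to a mean coverage of 705 to 3150 per library. Dppa5a alone gave 396 to 2108 of it, and Nanog stood at 1.35 to 13.1. Esrrb was at 0 in wild type replicates 1 and 3 and in knockout replicates 2 and 3. The feeder fibroblast markers, of which 6 of 8 were matched to a transcript, summed to 29.2 to 79.8, and of the matched ones Dcn was at 0 in 5 libraries. Per summed stem cell coverage the feeder markers came to 4.14% and 1.49% in wild type and knockout replicate 3, against 1.67% to 2.53% in the other 4. Wild type replicate 3 was thus the highest and knockout replicate 3 the lowest, and the part of feeder RNA in the small fraction was not tested.

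Among the abundant families, replicate 3 differed most in percentage points of coverage for tRNA-Glu-TTC, and most in fold for tRNA-Met-CAT. A reference's level was its mean coverage over cytosines, and its share was the percentage of the sum over all references. In replicate 3 the share of tRNA-Glu-TTC, a glutamate acceptor, was 46.6% in wild type, then 50.1% in the knockout. It was 32.6% and 33.5% in wild type replicates 1 and 2 and 38.2% and 33.6% in knockout replicates 1 and 2. Both replicate 3 libraries lay above the other 4. tRNA-Asp-GTC, an aspartate acceptor and Dnmt2 substrate, took 30.2% and 26.1% in replicate 3 against 37.0% and 34.9% in wild type, then 29.8% and 34.3% in the knockout, so the groups overlapped. The ratio of tRNA-Glu-TTC to tRNA-Asp-GTC was 1.54 and 1.92 in replicate 3 and 0.882, 0.960, 1.28 and 0.979 in the other libraries, wild type first. These are bulk libraries, in which a smaller share of a tRNA in fewer cells and less of it per cell cannot be told apart.

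tRNA-Met-CAT, which decodes AUG, was 8.21-fold lower in share in replicate 3. Its share was 4.54%, 6.04% and 0.690% in wild type replicates 1, 2 and 3 and 4.52%, 4.94% and 0.531% in knockout replicates 1, 2 and 3. The lowest of the 4 other libraries was thus several times the higher replicate 3 value. The log2 difference, fitted with genotype as a covariate on coverage scaled by the trimmed mean of M-values (TMM), was -2.61 (SE 0.18). The family holds initiator and elongator tRNAs, which the reference names do not tell apart. All 3 references of 72 bp lay below the other 4 libraries in replicate 3, and so did 3 of the 5 references of 73 bp. The 3 references of 72 bp together took 4.35%, 5.87% and 0.411% in wild type, then 4.35%, 4.76% and 0.386% in the knockout. The 5 references of 73 bp together took 0.193%, 0.169% and 0.279% in wild type, then 0.167%, 0.186% and 0.145% in the knockout, with replicate 3 highest in one genotype and lowest in the other. Most of the family's coverage lay on a single 72 bp reference, chr13.trna108 (mm9 chr13:23591949-23592020, plus strand). Its share was 4.27%, 5.79% and 0.384% in wild type, then 4.27%, 4.67% and 0.357% in the knockout, a log2 difference of -3.35 (SE 0.13).

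**Figure D1:**
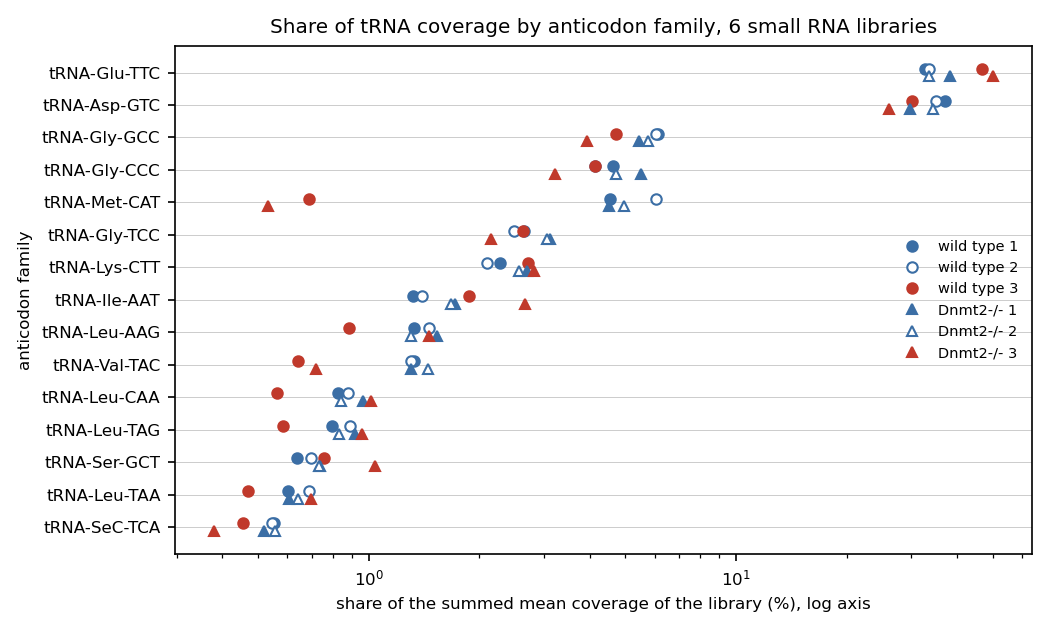
Share of the summed mean tRNA coverage (percent, log axis) for each anticodon family with a mean share of 0.5% or more. Each point is 1 library, circles wild type and triangles Dnmt2-/-, with replicate 3 in red; tRNA-Met-CAT stands at 0.690% and 0.531% in replicate 3 and between 4.52% and 6.04% elsewhere.

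Among the 15 families with a mean share of 0.5% or more, replicate 3 lay above the other 4 libraries in 4 and below them in 5. The 4 above were tRNA-Glu-TTC, tRNA-Lys-CTT, tRNA-Ile-AAT and tRNA-Ser-GCT. tRNA-Ile-AAT, an isoleucine acceptor, took 1.88% and 2.66% in replicate 3, against 1.32% and 1.40% in wild type, then 1.71% and 1.67% in the knockout (log2 difference 0.99, SE 0.14). tRNA-Ser-GCT, a serine acceptor with a long variable arm, took 0.756% and 1.04% in replicate 3 and 0.638% to 0.738% in the other 4 libraries (0.77, SE 0.14). tRNA-Lys-CTT, a lysine acceptor, took 2.72% and 2.83% against 2.10% to 2.70%, so its separation was narrow. Below the other 4 lay tRNA-Met-CAT, tRNA-Gly-GCC, tRNA-Gly-CCC, tRNA-Val-TAC and tRNA-SeC-TCA. tRNA-Val-TAC took 0.644% and 0.719% in replicate 3 and 1.30% to 1.45% in the other 4. tRNA-Gly-GCC, the glycine acceptor that Dnmt2 methylates, took 4.72% and 3.94% in replicate 3 against 5.45% to 6.12%. For 3 of these 5 the position below came from shares alone: under TMM the log2 difference was -0.01 for tRNA-Gly-GCC, 0.06 for tRNA-Gly-CCC and 0.04 for tRNA-SeC-TCA. tRNA-Gly-CCC also stood below by almost nothing, at 4.1355% in wild type replicate 3 against 4.13552% in wild type replicate 2.

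The remaining named families did not stand apart. tRNA-Leu-TAA, tRNA-Leu-TAG and tRNA-Leu-CAA, which read leucine codons, were each lowest in wild type replicate 3 and highest in knockout replicate 3. tRNA-Leu-CAA, for example, took 0.561% and 1.01% in replicate 3 and 0.827% to 0.964% in the others. tRNA-Gly-TCC took 2.64% and 2.16% in replicate 3, with 2.48% to 3.11% in the others. Their log2 differences lay between 0.19 and 0.28 under TMM and between -0.24 and -0.15 for shares, so their direction depended on the scaling.

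Several scarce families also stood apart. tRNA-Gln-TTG, a glutamine acceptor, took 0.107% and 0.132% in wild type replicates 1 and 2, 0.119% and 0.121% in knockout replicates 1 and 2, and 0.0184% and 0.0238% in replicate 3. tRNA-Val-CAC took 0.102% and 0.0912% in replicate 3 and 0.284% to 0.409% in the others. tRNA-Asn-GTT, an asparagine acceptor, lay the other way, at 0.320% and 0.310% in replicate 3 and 0.156% to 0.232% in the others. These 3 families were picked with their values in view.

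The scaling set the balance of higher and lower families. The median log2 difference over 50 families was 0.15 under TMM scaling and -0.28 for shares. Over 174 references the medians were 0.02 and -0.29. With limma at an adjusted p under 0.05, a threshold used only to count, 13 families (26%) were higher and 9 (18%) lower under TMM, and 5 (10%) higher and 22 (44%) lower for shares, together 44% and 54%. Of the references, 17 (9.77%) were higher and 32 (18.4%) lower under TMM, together 28.2%, and 10 (5.75%) were higher and 48 (27.6%) lower for shares, together 33.3%. In shares, replicate 3 lay above the other 4 libraries for 15 references (8.62%) and below for 65 (37.4%). Since the same coverage picked out the libraries, nothing is read from these counts.

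Copies of 1 anticodon family did not move together. For tRNA-Glu-TTC the reference chr13.trna105 (mm9 chr13:23555404-23555475, plus strand) took 23.3% and 25.7% in replicate 3 and 11.2% to 13.3% in the other 4 libraries. The reference chr14.trna359 took 5.91% and 4.97% in replicate 3 and 2.58% to 3.05% elsewhere. The third tRNA-Glu-TTC reference, which merges chr3.trna286 and chr10.trna81, took 17.4% and 19.4% in replicate 3 and 17.1% to 22.7% elsewhere. The 2 unmerged copies thus carried the family's higher share, with log2 differences of 1.29 and 1.26 against 0.27 for the merged reference, and reads of near-identical copies may have been placed on either. Among tRNA-Lys-CTT copies the reference chr9.trna1514 (mm9 chr9:14762877-14762949, minus strand) had the largest difference, 0.792% and 1.34% against 0.320% to 0.566%.

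Across 50 families the log2 difference of replicate 3 from replicates 1 and 2 in wild type had a Pearson r of 0.856 with that in the knockout, with the same sign in 36. Across 174 references r was 0.719, with the same sign in 124, and across the 44 references with a mean share of 0.05% or more it was 0.878. These are descriptions across tRNAs that share libraries and scaling, and the 2 replicate 3 libraries were picked out together. Tested directly, the knockout minus wild type difference in the third pair departed from that in the other pairs for 0 of 174 references (0%) with limma, adjusted p 0.185 at the lowest. At an unadjusted p under 0.05 there were 25. That test has 2 residual degrees of freedom and takes its spread from replicates 1 and 2 alone.

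Coverage along the molecule also differed, a readout that the choice of libraries did not name but that comes from the same coverage. Over tRNAs other than Leu, Ser and Tyr, cytosines at linear positions 8 to 26, the D arm, held 4.78% and 3.87% of coverage in replicate 3. They held 6.46% and 6.59% in wild type, then 6.68% and 6.53% in the knockout in replicates 1 and 2. Linear positions 49 to 65, the T arm, held 31.3% and 32.9% in replicate 3 and 27.51% to 27.997% in the other 4 libraries. Averaged over references instead of over reads, the difference at 8 to 26 was -1.05 percentage points in place of -2.24, and that at 49 to 65 was 1.43 in place of 4.24. Abundant tRNAs weigh most in the pooled shares.

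Within a reference, coverage was compared with that of the reference's highest cytosine, a measure chosen after the profiles were seen. At linear positions 1 to 7 replicate 3 lay below the other 4 libraries in 39 of 77 references (50.6%) and above them in 9 (11.7%). These 77 include Leu, Ser and Tyr references, which the counts for the other parts leave out. Some had values near 0 in every library, as in chr11.trna401 (tRNA-Leu-TAG), at 0% and 0.0181% in replicate 3 against 0.0852% to 0.293%. The medians over the 77 references were 17.8%, 22.4% and 8.29% in wild type, then 21.9%, 16.5% and 4.01% in the knockout. In the D arm it lay below in 34 of 67 references (50.7%) and above in 6 (8.96%). In the anticodon arm replicate 3 lay below in 41 of 70 references (58.6%) and above in 5 (7.14%), and in the T arm below in 17 (24.3%) and above in 16 (22.9%). At the 3′ end it lay above in 21 of 70 (30%) and below in 8 (11.4%). The selenocysteine tRNA chr7.trna86 was counted by the same linear positions, although its cytosines run to linear position 88.

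The profiles differed by tRNA. The 5′ end of chr13.trna105 (tRNA-Glu-TTC) had 13.9%, 18.8% and 3.97% of the highest coverage in wild type, then 17.7%, 12.5% and 3.81% in the knockout. The same stretch of chr13.trna108 (tRNA-Met-CAT) had 71.99%, 75.45% and 25.1% in wild type, then 68.1%, 69.8% and 21.6% in the knockout, and its 3′ end had 61.6%, 69.5% and 35.2%, then 60.2%, 66.8% and 46.7%. Coverage of this tRNA thus narrowed to its middle in replicate 3. In some references with the best covered 5′ part replicate 3 was lower downstream of it. The anticodon arm of chr15.trna913, a 73 bp tRNA-Met-CAT, had 35.9%, 41.1% and 6.99% in wild type, then 30.2%, 30.6% and 12.3% in the knockout. Further on in that reference the groups overlapped. Its T arm had 15.8% and 30.4% in replicate 3 against 22.6% to 28.8%, and its 3′ end 15.1% and 29.1% against 20.4% to 26.9%. In chr11.trna1824 (tRNA-Gly-TCC; mm9 chr11:68854780-68854851, minus strand) the 3′ end had 30.6%, 34.8% and 14.5% in wild type, then 41.0%, 33.2% and 22.8% in the knockout. In chr7.trna86, a selenocysteine tRNA, cytosines were listed up to linear position 88, so the linear positions used for the T arm may not be its T arm. At those positions, here cytosines 56 and 59, it had 25.7% and 25.2% in replicate 3 and 47.4% to 51.2% in the other 4. In other such references replicate 3 overlapped downstream or lay above, as in the T arm of chr12.trna886 (tRNA-Glu-CTC), at 13.7% and 12.7% against 1.12% to 5.43%. That family is scarce, with a mean share of 0.00734%, so these percentages rest on few reads. The tRNA-Val-TAC reference chr19.trna109 went the other way, with 77.3% and 86.3% in the T arm in replicate 3 and 60.1% to 64.4% in the others.

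**Figure D2:**
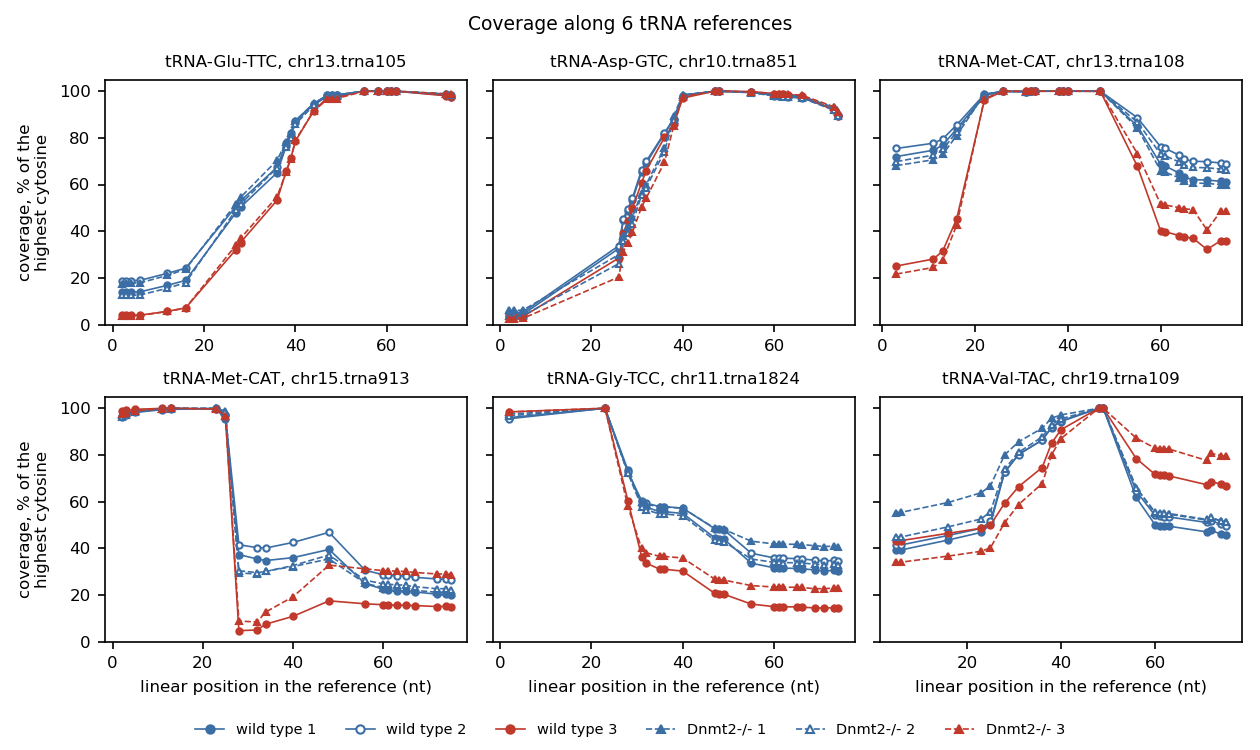
Coverage at each cytosine as a percentage of the highest-covered cytosine of the same reference (vertical axis) against its linear position in nucleotides (horizontal axis), for 6 tRNA references; solid lines wild type, dashed lines Dnmt2-/-, replicate 3 in red. In chr13.trna108 replicate 3 has 25.1% and 21.6% at the 5′ end against 68.1% to 75.5% in the other libraries.

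Non-conversion was compared at 2384 cytosines that had at least 10 reads in each of the 6 libraries, on 144 references. Just inside that limit, 30 cytosines had a lowest coverage of 10, with a median difference of 0 and a range of -6.11 to 10.6 percentage points. The 56 cytosines just outside, at 9 reads, had a median of -0.59 and a range of -16.5 to 10.9. With edgeR's quasi-likelihood test as a counting rule, 90 of 2315 fitted cytosines (3.89%) were higher and 144 (6.22%) lower in replicate 3, together 10.1%. Both replicate 3 libraries lay above the other 4 at 192 of the 2384 cytosines (8.05%) and below at 356 (14.9%). At the 1391 with at least 100 reads in every library, they lay above the other 4 at 144 (10.4%) and below at 282 (20.3%). The median difference there was -0.09 points, and 25 cytosines differed by more than 5 points and 12 by more than 10. All 12 were cytosines whose mean non-conversion was over 10%, of which there were 116.

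**Figure D3:**
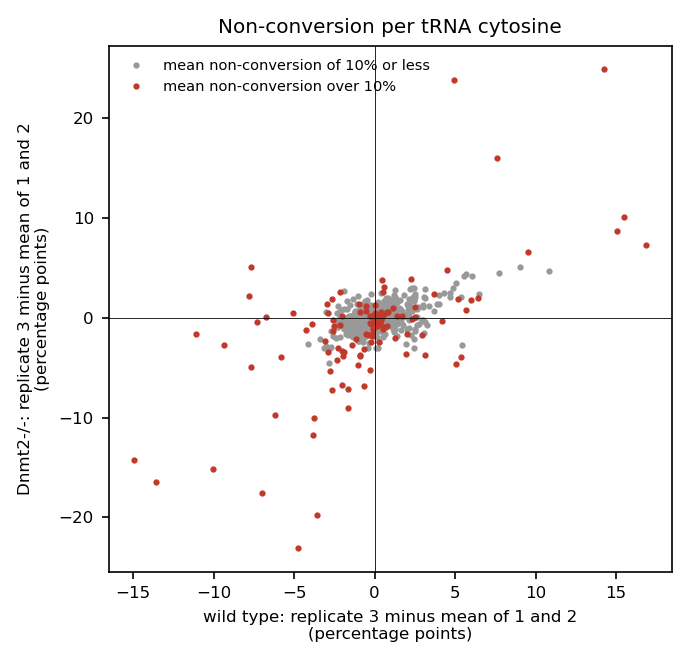
Replicate 3 minus the mean of replicates 1 and 2 in non-conversion (percentage points), wild type on the horizontal and Dnmt2-/- on the vertical axis, 1 point per cytosine with coverage of 100 or more in all 6 libraries (n = 1391). Points cluster near 0, and the Pearson r was 0.586 over all and 0.632 over the 116 cytosines with mean non-conversion over 10%, shown in red.

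The largest differences were in partly unconverted cytosines, mostly of scarce tRNAs. Position 39 of the tRNA-Gly-GCC reference chr8.trna560 (mm9 chr8:113586461-113586531, plus strand) had non-conversion of 44.01%, 45.73% and 59.1% in wild type, then 38.2%, 36.9% and 62.5% in the knockout. Replicate 3 was 19.6 points higher there, with at least 631 reads in each library. Position 39 of the tRNA-Ala-AGC reference chr13.trna66 (mm9 chr13:21314455-21314526, plus strand) went the other way, at 36.0%, 36.9% and 21.5% in wild type, then 32.3%, 37.8% and 20.8% in the knockout. Position 49 of the merged tRNA-Gln-TTG reference had 57.9%, 59.7% and 45.2%, then 55.1%, 53.1% and 37.7%, a difference of -15.0 points. At all 3 cytosines the replicate 3 libraries lay outside the range of the other 4 in both genotypes. Of the 10 cytosines of largest difference, 1 to a reference, replicate 3 was above in 5, below in 3 and overlapping in 2.

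The others above were position 67 of chr13.trna68 (tRNA-Ala-TGC, 75.0% and 79.6% against 51.2% to 73.9%), position 61 of chr17.trna113 (tRNA-Gly-CCC), position 46 of chr13.trna69 (tRNA-Ala-AGC, 58.6% and 44.3% against 35.1% to 42.2%) and position 71 of chr16.trna50 (tRNA-Thr-CGT, 40.6% and 46.8% against 22.0% to 39.5%). The deepest was chr17.trna113, with at least 19398 reads a library and 55.8%, 56.3% and 71.5% in wild type, then 59.8%, 53.7% and 66.9% in the knockout. Position 47 of chr13.trna82, a 72 bp tRNA-Met-CAT, was below, at 55.7% and 47.3% against 61.4% to 68.3%. At position 4 of chr11.trna1816 (tRNA-Lys-TTT) and position 46 of chr3.trna752 (tRNA-Gly-CCC) the groups overlapped, and the low value was in knockout replicate 3 (49.3% and 39.6%). Many of these references have near-identical copies, so which copy a read came from is uncertain.

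**Figure D4:**
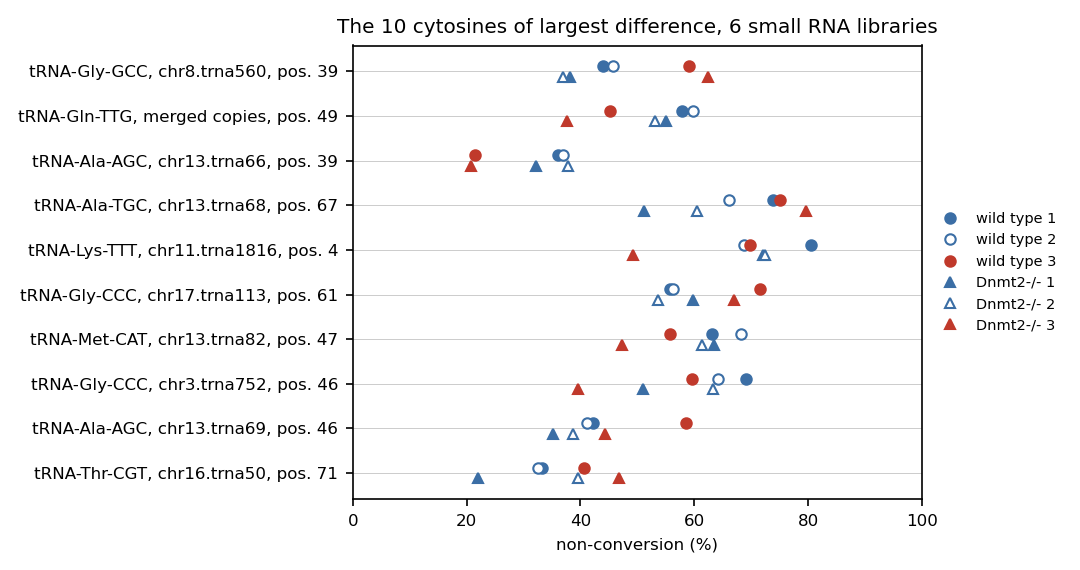
Non-conversion (percent) in each of the 6 libraries at the 10 cytosines of largest difference, 1 row per cytosine, circles wild type, triangles Dnmt2-/-, replicate 3 in red. In the first row both replicate 3 libraries are near 60% (59.1% and 62.5%), above the 36.9% to 45.7% of the other 4.

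Position 38, which Dnmt2 methylates, kept its genotype difference in the third pair. Pooled over copies, tRNA-Asp-GTC had 91.0%, 90.9% and 93.4% in wild type, then 3.16%, 3.03% and 3.19% in the knockout. tRNA-Gly-GCC, where this is linear position 37, had 81.5%, 82.3% and 81.2% in wild type, then 3.89%, 3.81% and 4.403% in the knockout. tRNA-Val-AAC had 87.1%, 85.3% and 88.5% in wild type, then 1.81%, 2.27% and 3.14% in the knockout. The knockout minus wild type difference in the third pair was -90.3, -76.8 and -85.4 points for these 3 tRNAs, against -87.9 and -87.8, -77.6 and -78.4, and -85.3 and -83.0 in the first and second pairs. Of 11 such cytosines with coverage of 10 or more, out of 13 listed, edgeR's rule counted 2 as higher in replicate 3 and 0 as lower, with 3.89% and 6.22% over all cytosines. The 2 were position 38 of chr10.trna851 (tRNA-Asp-GTC) and linear position 37 of chr1.trna702 (tRNA-Gly-GCC). At the former, replicate 3 was 2.51 points higher in wild type and 0.10 points higher in knockout cells, and at the latter 2.49 and 1.08 points. The median difference over the 11 was 1.14 points, against -0.11 over all 2384 cytosines, most of which had little non-conversion. For the 10 with mean non-conversion over 10% it was 0.68 points, against -0.38 over all 196 such cytosines. The largest of the 11, 10.6 points at chr5.trna1609, had 10 reads in its lowest library.

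At the wobble cytosine of tRNA-Leu-CAA, 4 references had differences between -5.38 and 4.25 points, at 19 to 134 reads a library. By edgeR's counting rule 0 of 4 passed in either direction, with 3.89% higher and 6.22% lower over all cytosines. So few reads leave that rule little power here. In chr11.trna1911 both replicate 3 libraries lay above the other 4, at 88.9% and 89.6% against 80.0% to 88.8%. Variable loop cytosines of abundant tRNAs differed from copy to copy. Position 49 of chr13.trna105 (tRNA-Glu-TTC) had 98.5%, 98.4% and 98.7% in wild type, then 98.4%, 98.5% and 98.3% in the knockout. Position 47 of chr10.trna851 (tRNA-Asp-GTC) had 89.9%, 89.3% and 89.1%, then 91.0%, 92.2% and 92.3%, so the groups overlapped at both. Position 49 of the merged tRNA-Glu-TTC reference, in contrast, was 2.90 points lower in replicate 3, and position 46 of chr1.trna702 (tRNA-Gly-GCC) was 4.94 points lower, at 84.3% and 81.7% against 86.6% to 89.8%. Over 118 cytosines at linear 44 to 50 with mean non-conversion over 10%, replicate 3 lay below the other 4 at 41 and above at 7, with a median of -1.33 points. Over all 196 cytosines over 10% it lay below at 46 and above at 20, with a median of -0.38, so 41 of those 46 were in this list. Of 14 covered cytosines at linear 71 to 73 of tRNA-Thr and tRNA-Cys, where Nsun6 acts, 7 were over 10%. All 7 had a positive difference, from 0.62 to 17.6 points with a median of 10.1. The largest, at position 73 of chr13.trna75, had only 30 reads in its lowest library. The median, at position 73 of chr13.trna996, had 18. The smallest, at position 71 of chr11.trna550 with at least 1593 reads, was 2.92 points in wild type and -1.68 in the knockout. Both libraries lay above the other 4 at 2 of the 7, and at 20 of all 196 cytosines over 10%. The 2 merged tRNA-Thr-TGT genes, for example, had 91.1%, 90.7% and 93.1% at position 72 in wild type, then 86.5%, 90.5% and 92.4% in the knockout.

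Cytosines with little non-conversion differed by position in the molecule. Pooled over cytosines of 10% or less and coverage of 10 or more, the background of a library was 1.82%, 1.77% and 2.06% in wild type, then 1.95%, 1.82% and 2.14% in the knockout. As a mean over cytosines it was 1.66%, 1.60% and 1.51% in wild type, then 1.54%, 1.53% and 1.43% in the knockout, so the direction turned with the weighting. With cytosines over 5% left out, the pooled value was 1.495% to 1.58% in all 6 libraries. These limits were applied in each library by itself, so a cytosine over 5% only in replicate 3 was left out only there. A set common to all libraries was the 1275 cytosines with a mean of 10% or less and coverage of 100 or more. Its pooled values were 2.27% and 2.22% in replicate 3 and 1.79% to 1.95% in the other 4. In the long fraction of replicate 3 the background was 1.499% and 1.42%, within or below the 1.45% to 1.77% of the other 4 long libraries.

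The higher pooled values lay in the T arm. At coverage of 100 or more, the 303 cytosines of 10% or less at linear 49 to 65 had 2.38%, 2.37% and 3.92% in wild type, then 2.79%, 2.45% and 3.65% in the knockout. In the other 5 position classes the pooled value in replicate 3 was below that of replicates 1 and 2 of the same genotype. At linear 66 onward, for example, it was 1.34% and 1.28% against 1.53% to 1.64%. In the T arm replicate 3 lay above the other 4 libraries at 78 cytosines (25.7%) and below at 37 (12.2%), whereas at linear 27 to 43 it lay above at 11 of 230 (4.78%) and below at 63 (27.4%).

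Within the T arm the highest pooled values lay at the 3′ side of its stem, linear 60 to 62, a window chosen after the values were seen. Pooled non-conversion at its 130 cytosines was 3.13%, 3.16% and 5.53% in wild type, then 3.85%, 3.26% and 5.14% in the knockout, and replicate 3 lay above the other 4 at 42 of them (32.3%) and below at 15 (11.5%). At the 173 other T arm cytosines the pooled values were lower but ordered alike, 1.59% and 1.49% in replicate 3 against 1.29% to 1.34%, with 36 above (20.8%) and 22 below (12.7%). Over all 1275 cytosines of 10% or less the shares were 10.1% above and 19.6% below. The 42 included 9 in tRNA-Glu-TTC, 6 in tRNA-Asp-GTC, 6 in tRNA-Val-CAC and 4 in tRNA-Gly-GCC. Position 61 of the merged tRNA-Glu-TTC reference had 5.89%, 6.06% and 10.9% in wild type, then 6.85%, 5.75% and 9.28% in the knockout. Position 61 of chr11.trna1824 (tRNA-Gly-TCC) had 5.33%, 5.14% and 10.9%, then 4.75%, 4.23% and 8.87%. In tRNA-Asp-GTC the levels were lower, 1.20%, 1.20% and 2.33% and then 1.74%, 1.64% and 3.54% at position 61 of chr10.trna851. Most of the 130 did not stand apart: the median over them was 1.76% and 1.65% in replicate 3 and 1.66% to 1.98% in the others. Coverage of the T arm was higher in the same libraries, and its part in these values was not tested.

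**Figure D5:**
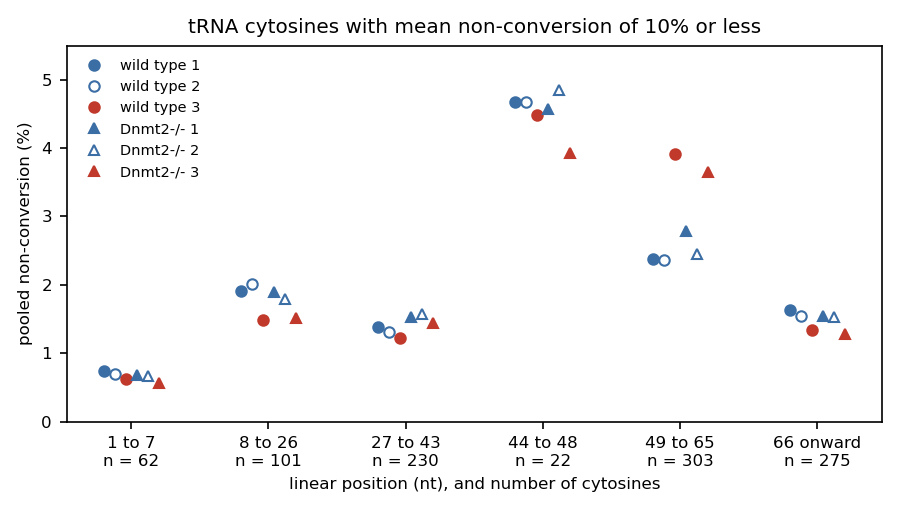
Pooled non-conversion (percent) of cytosines with mean non-conversion of 10% or less and coverage of 100 or more, by class of linear position (with the number of cytosines), 1 point per library, replicate 3 in red. Only at linear 49 to 65 are both replicate 3 libraries (3.92% and 3.65%) above the other 4 (2.37% to 2.79%).

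The genotype difference in the third pair was then tested against that in the other pairs, per cytosine. With edgeR's quasi-likelihood test and Benjamini-Hochberg adjustment, 19 of 2315 cytosines (0.821%) departed, 17 of them (0.734%) lower in the third pair and 2 (0.0864%) higher. The fit had 2 residual degrees of freedom, and its spread between libraries came from replicates 1 and 2 alone. Replicate 3 had been chosen as differing from these in non-conversion, so the p-values are no independent evidence of a departure. With a block for the replicate number, 0 passed (lowest adjusted p 0.061 with edgeR), and limma on log2 odds also gave 0 (lowest adjusted p 0.415); 98 and 181 cytosines had an unadjusted p under 0.05. The block takes up a further residual degree of freedom, so that fit has less power. Without wild type replicate 2 there were 6. All 19 kept their sign in every fit in which they could be fitted.

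Of the 19, 16 had a mean non-conversion over 10%, out of 196 such cytosines. Linear 44 to 50 outside Leu, Ser and Tyr, in or beside the variable loop, held 13 of the 19 and also 118 of those 196. By family, 6 were in tRNA-Gly-GCC, 4 each in tRNA-Gly-TCC and tRNA-Glu-TTC, 3 in tRNA-Gly-CCC and 1 each in tRNA-Asp-GTC and tRNA-Lys-CTT. The lowest adjusted p, 3.21e-06 with edgeR, was at variable loop position 47 of chr11.trna1824 (tRNA-Gly-TCC). Non-conversion there was 76.4%, 75.4% and 81.0% in wild type, then 74.8%, 76.8% and 71.2% in the knockout. Replicate 3 was thus the highest library in wild type and the lowest in the knockout, and the knockout minus wild type difference was -9.81 points in the third pair and -0.13 in the mean of the other pairs. Position 59 of chr17.trna113 (tRNA-Gly-CCC; mm9 chr17:26012033-26012103, plus strand) had 25.2%, 24.9% and 30.4%, then 25.6%, 22.3% and 20.0% (edgeR adjusted p 2.09e-05). Position 39 of chr1.trna702 (tRNA-Gly-GCC; mm9 chr1:172996762-172996832, plus strand), 1 of the 2 higher, had 21.3%, 23.6% and 15.2%, then 23.2%, 21.7% and 22.1% (edgeR adjusted p 0.000119). There the low value was in wild type replicate 3. Position 49 of the merged tRNA-Glu-TTC reference had 92.5%, 92.2% and 91.3%, then 93.1%, 93.6% and 88.6% (edgeR adjusted p 0.000211). At the Dnmt2 site, position 38, only chr10.trna856 of tRNA-Asp-GTC passed (91.1%, 91.0% and 93.4%, then 3.37%, 3.22% and 3.24%; edgeR adjusted p 0.0375), and chr10.trna851 with 91.0%, 90.8% and 93.4%, then 3.14%, 3.02% and 3.18%, did not (0.0575).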

How the data were processed

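RNA of under 200 nt, depleted of rRNA, was bisulfite treated and sequenced, per the labels' protocols. Each deposited file gives, per the file headers, a raw coverage count of reads per cytosine and the fraction of them that were not converted. BSMAP and mm9 are named in the submitters' processing notes; the BSMAP version and the filters were not given in the sources used here. Of the entries, the lowest had a coverage of 3. Coverage times fraction was whole to within 0.01 in all 19079 entries, which gave non-converted and converted read counts. Reads are not independent molecules. Libraries of a genotype had identical values at no more than 3.05% of cytosines.

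Reference levels (mean coverage over cytosines listed in any of 6 libraries, minimum 1, unlisted taken as 0) were TMM scaled and fitted as log2 of the value plus 0.5 with limma 3.58.1, with genotype and replicate 3 as terms (3 residual degrees of freedom). This scale understates differences of low references. Read counts per cytosine were fitted with edgeR 4.0.16 in R 4.3.3, with a term per library, and genotype and replicate 3 by conversion state. DESeq2 1.42.0 served as an alternative. Adjusted p under 0.05 was the threshold. The fits were tested on simulated data.

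The libraries, lists and members were chosen with earlier results of these data known. Named were the 10 families and 10 references of largest absolute log2 difference at a mean share of 0.5% or more, the 10 cytosines of largest difference at coverage of 100 or more (1 per reference), the methyltransferase sites, and up to 10 calls of the interaction; the linear position of the tRNA-Leu-CAA wobble cytosine, 35, was read from earlier values. The numbers were taken to pair the libraries. Deviations of same-numbered libraries from their genotype mean correlated at 0.505, 0.491 and 0.719 in coverage for replicates 1, 2 and 3. In non-conversion they correlated at 0.254, 0.318 and 0.586. Deviations from a shared mean are tied, so an outlying replicate 3 can by itself make replicates 1 and 2 correlate. Replicate 1 minus 2, which leaves replicate 3 out, correlated at -0.08 and -0.11 between genotypes, so these values show no pairing of replicates 1 and 2. Median coverage per listed cytosine was 96 to 171 reads; sampling error at low coverage spans several percentage points.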

Additional observations from a re-analysis of the deposited data

Results flagged for a closer look

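The knockout minus wild type difference in the third pair was tested against that in the other pairs (edgeR quasi-likelihood, adjusted over 2315 cytosines). The 10 cytosines of lowest adjusted p are given here. They lie in 5 references. In chr11.trna1824 (tRNA-Gly-TCC) these were position 47 (adjusted p 3.21e-06), position 49 (3.83e-05) and position 28 (0.00114). Position 49 had non-conversion of 85.4%, 84.3% and 87.9% in wild type replicates 1, 2 and 3 and 80.4%, 82.1% and 77.6% in the knockout. In chr17.trna113 (tRNA-Gly-CCC) they were position 59 (2.09e-05) and position 47 (0.00163), and in chr1.trna702 (tRNA-Gly-GCC) position 47 (5.11e-05) and position 39 (0.000119). In the merged tRNA-Glu-TTC reference they were position 49 (0.000211) and position 48 (0.000556), and in chr11.trna1819 (tRNA-Gly-GCC) position 47 (0.000758; 96.8%, 96.5% and 96.5% in wild type, 97.1%, 97.4% and 95.5% in the knockout). With the replicate block, which leaves fewer residual degrees of freedom, none of these passed, nor did any with limma on log2 odds. The test took its spread from replicates 1 and 2 alone. Replicate 3 was chosen as differing from them in non-conversion, so these p-values are no independent evidence. Neighbouring cytosines of a reference share reads and are not independent.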

How the results depend on the processing

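The 49 references counted as different in coverage became 26 at a mean coverage of 100 or more, where fewer references (93) entered, and leaving out 1 library gave 37 to 48. For families, 17 to 22 were counted without 1 library. For non-conversion per cytosine, 234 became 68 at mean non-conversion of 5% or more, where 264 cytosines entered, and 0 with limma on log2 odds (331 at an unadjusted p under 0.05). Leaving out 1 library gave 127 to 213, lowest without knockout replicate 3 and next lowest without wild type replicate 3 (147). The departure of the third pair in non-conversion went from 19 cytosines to 0 with the replicate block and 0 with limma, and to 6 to 17 without 1 library. In coverage it went from 0 references to 3 with no filter on low values and stayed at 0 with the replicate block. Leaving out a replicate 3 library makes that departure impossible to fit, and for replicate 3 against 1 and 2 the block and the contrast coincide. Direction turned for tRNA-Leu-TAA (-0.15 for shares, -0.11 to 0.48 without 1 library), tRNA-Leu-TAG (-0.20, -0.18 to 0.45), tRNA-Leu-CAA (-0.22, -0.26 to 0.49), tRNA-Gly-TCC (-0.24, -0.20 to 0.39) and the merged tRNA-Glu-TTC reference (-0.0516 for shares); the values below 0 arose without knockout replicate 3 for the leucine families and without wild type replicate 3 for tRNA-Gly-TCC. The difference in background, 0.261 points higher in replicate 3, was 0.0135 with cytosines over 5% left out in each library by itself. It was -0.112 as a mean over cytosines and 0.227 to 0.296 without 1 library. The coverage share at linear 8 to 26 differed by -2.24 points, by -1.05 as a mean over references, by -2.12 over all tRNAs and by -2.73 to -1.74 without 1 library. That at 49 to 65 differed by 4.24, by 1.43 as a mean over references and by 3.37 to 5.11 without 1 library. The causes were not tested. The runs without 1 library for background and position shares were chosen after seeing the data. Of 419 comparisons for named items, 353 kept direction and side of the threshold, 51 lost the threshold, 6 gained it and 9 reversed.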

Other observations

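Cytosines at the first 2 positions after the gene end, which fall in the CCA tail added to mature tRNAs, made up a further group. At coverage of 100 or more there were 141 of them in 71 references, and their pooled non-conversion was 1.41%, 1.30% and 1.08% in wild type replicates 1, 2 and 3 and 1.29%, 1.26% and 0.964% in the knockout. Both replicate 3 libraries lay below the other 4 at 47 of the 141 (33.3%) and above them at 3 (2.13%). Over all 1275 cytosines of 10% or less at that coverage the shares were 19.6% below and 10.1% above. In the tRNA-Asp-GTC reference chr10.trna851 the first of these, position 73, had 1.55%, 1.42% and 1.06% in wild type, then 1.27%, 1.31% and 0.98% in the knockout.

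The largest single T arm difference at low non-conversion was at position 56 of chr3.trna1040 (tRNA-Arg-ACG), with 2.90%, 3.68% and 14.1% in wild type, then 6.98%, 5.13% and 10.7% in the knockout, at 177 reads or more in each library. Position 51 of chr13.trna97 (tRNA-Val-CAC) had 3.85%, 3.68% and 12.8%, then 4.38%, 4.30% and 9.41%. Both were chosen after their values were seen.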
